A study of Mus musculus with 64 samples.

Results

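The 37 genes described here are interferon-stimulated genes of the mouse, among them 6 guanylate-binding protein genes and 6 immunity-related GTPase genes. They were chosen by symbol. All 37 were found by Ensembl gene ID in both count tables, which list 55414 IDs for the acute and 55573 for the continuous experiment. The study asked how corticosterone (CORT), the glucocorticoid hormone of rodents, changes gene expression in wild-type (WT) mice and in mice that model Angelman syndrome (AS). All mice were F1 hybrid males aged 10 to 18 weeks, from C57BL/6J fathers and 129sv Ube3a m+/p- mothers, and AS mice inherited from the mother a Ube3a allele (Ube3atm1Alb) that lacks exon 5. In the acute experiment, mice received 3 mg/kg CORT or vehicle (5% ethanol in PBS) under the skin and the left hippocampus was collected 3 h later, from 6 mice in each of the 4 groups. In the continuous experiment, a pellet of 20 mg CORT with 80 mg cholesterol, or of 100 mg cholesterol as vehicle, was worn for 5 days, and left hippocampus and liver were collected on day 6, from 5 mice in each of the 4 groups. Whole tissue pieces were sequenced, so that every value is a mean over all cells of the piece. Fewer cells of a type and less RNA per cell cannot be told apart in such data.

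Interferons are secreted proteins that cells release when they sense virus or other microbes. Type I interferon activates, through its receptor and the Janus kinases, a complex that holds STAT2 and IRF9 and binds interferon-stimulated response elements in promoters, whereas interferon gamma acts mainly through gamma-activated sites. The genes so induced encode proteins that attack vacuoles and membranes of pathogens, bind foreign RNA, modify proteins with ISG15 or present antigen, and many are also transcribed at a low level in uninfected tissue. Glucocorticoids are known for lowering the transcription of many inflammatory genes through the glucocorticoid receptor.

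Promoter sequences of RefSeq (build GRCm38.p6, 250 bases before to 50 after the transcription start) were matched for 26 of the 37 genes. No entry was matched for Gbp4, Gbp6, Gbp9, Iigp1, Usp18, Mx1, Mx2, Ifi27, Parp14, Rtp4 and Zbp1. The letters GAAA, repeated after any 2 bases, a short form of the interferon-stimulated response element (ISRE), were searched on both strands and stood in a promoter of 16 of the 26 genes, or in 53.1% of their 32 promoters, against 3.44% of all 32851 promoters. The letters TTCNNNGAA, a gamma-activated site (GAS), read the same on both strands and stood in 11 of the 26 genes, or in 34.4% of their promoters, against 8.30% of all. The letters AGAACA, a part of the glucocorticoid response element, were searched on both strands and found in 3 of the 26 genes, or 9.38% of their promoters, against 19% of all. A match is a description of the letters in these windows and was not tested for function.

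Windows around these matches are shown for genes whose liver levels or fold changes are given below, 5′ to 3′ on the strand of the gene, with every ISRE and GAS match in capitals. In 3 immunity-related GTPase genes, the GAS match ended 2 bases before the ISRE match.
Igtp (chr11:58199486-58199556, plus strand): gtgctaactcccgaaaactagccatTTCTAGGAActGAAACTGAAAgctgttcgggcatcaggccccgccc
Irgm2 (chr11:58214877-58214947, plus strand): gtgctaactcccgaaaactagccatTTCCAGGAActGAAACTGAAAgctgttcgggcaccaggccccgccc
Tgtp2 (chr11:49064248-49064318, minus strand): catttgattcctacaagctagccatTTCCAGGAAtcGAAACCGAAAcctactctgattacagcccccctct
The windows of Igtp and Irgm2, which lie next to each other on chromosome 11, were identical in 69 of 71 bases, and that of Tgtp2 shared 45 of 71 with Igtp. In the guanylate-binding protein genes below, the ISRE match stood within 60 bases of the start, overlapping a further match in Gbp3 and preceded by a pair of GAS matches in Gbp7.
Gbp3 (chr3:142559974-142560039, plus strand): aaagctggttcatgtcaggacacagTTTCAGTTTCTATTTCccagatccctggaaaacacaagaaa
Gbp7 (chr3:142530205-142530317, plus strand): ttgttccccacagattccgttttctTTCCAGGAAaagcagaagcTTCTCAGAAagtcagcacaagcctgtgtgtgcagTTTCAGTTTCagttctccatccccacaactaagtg
Genes of the type I response are shown next, where Ifit1 and Ifit3 held a pair of separate ISRE matches each, Isg15 overlapping ones and Rsad2 a single one.
Ifit1 (chr19:34640760-34640838, plus strand): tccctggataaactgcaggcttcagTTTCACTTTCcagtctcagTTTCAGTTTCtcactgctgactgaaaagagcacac
Ifit3 (chr19:34583348-34583441, plus strand): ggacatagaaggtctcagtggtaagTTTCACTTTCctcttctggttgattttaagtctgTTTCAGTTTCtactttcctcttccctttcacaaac
Isg15 (chr4:156200850-156200921, minus strand): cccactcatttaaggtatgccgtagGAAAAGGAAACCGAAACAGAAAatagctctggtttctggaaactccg
Rsad2 (chr12:26456538-26456597, minus strand): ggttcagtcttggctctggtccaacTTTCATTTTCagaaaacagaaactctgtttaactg

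Read counts per gene were used, and counts on genes numbered 18612550 to 21783009 over the 64 libraries. CPM denotes counts scaled to a library total of 1000000 with edgeR's TMM factors, computed within each tissue and experiment, and a count of 3, the floor used here, corresponds to 0.138 to 0.161 CPM, which covers counting error only. Genes were tested when more than 20 normalized counts were reached in at least 3 replicates of a group, a filter which 27 of the 37 genes passed in the acute hippocampus, 29 in the continuous hippocampus and 37 in the liver. Differences were tested with edgeR's quasi-likelihood test across all genes that passed, and rose or fell is written only where the p-value adjusted by Benjamini-Hochberg over all of these was under 0.05. The hippocampal libraries H9 and H13, which the study left out, were left out of the continuous hippocampus too, so that 4 vehicle mice of each genotype remain there. Of 4 glucocorticoid targets used to check the pellet, Fkbp5 rose by 3.78 ± 0.22 on the log2 scale in the liver and by 0.81 ± 0.08 in the hippocampus (mean of both genotypes ± SE), and Tsc22d3 by 1.49 ± 0.08 and 0.66 ± 0.09. Per1 was at 1.15 ± 0.67 (adjusted p = 0.194) in liver and 0.24 ± 0.09 (adjusted p = 0.114) in hippocampus, and Sgk1 at -0.11 ± 0.16 (adjusted p = 0.625) and 1.33 ± 0.12 (adjusted p = 8.80e-07). Ube3a counts, which sum all exons and so do not isolate the deleted one, were 28.5 to 38.6 CPM in the 10 AS livers and 41.8 to 54.4 in the 10 WT livers, but overlapped between genotypes in hippocampus, at 69.2 to 97.5 and 72.9 to 98.0 CPM in the continuous experiment. Neuronal Ube3a is transcribed from the maternal allele, whereas other cells use both.

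In vehicle-treated WT mice 27 of the 37 genes were higher in every liver library than in every hippocampal one, 3 were lower and 7 overlapped, while 29.3% of all 12273 genes tested in the liver were higher in this sense and 53.3% lower. Levels are given on the RPKM scale (CPM per kilobase of exon, ± SD, n = 5 livers and 4 hippocampi), which was scaled separately in each tissue and was not tested between them. Ifitm3, which blocks fusion of viruses with endosomes, led the liver order at 350 ± 19.5 RPKM against 9.03 ± 1.70 in hippocampus. Bst2, or tetherin, which holds budding virus at the cell surface, came second in the liver at 132 ± 5.83 RPKM and stood at 2.998 ± 0.408 in hippocampus. Between these neighbours in the liver order, and between Bst2 and the third gene, Ifi27, at 33.6 ± 9.16 RPKM, the levels lay further apart than their spread, whereas Ifi27 and the fourth, Iigp1, at 31.3 ± 3.36 RPKM, did not differ beyond it. Ifi27 also had the highest hippocampal level, 20.9 ± 4.08 RPKM. The ratio of the liver mean to the hippocampal mean was highest, at 112, for Iigp1, an immunity-related GTPase that attacks parasite vacuoles, with 0.281 ± 0.171 RPKM in hippocampus. Xaf1, Irf8 and Ifit2 were the 3 genes with every liver below every hippocampus, and the lowest mean in both tissues was that of Mx1, at 0.168 ± 0.0824 RPKM in liver. Its 6 counts over the 4 WT vehicle hippocampi show how little depth lies behind the lowest genes.

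Continuous CORT lowered nearly the whole group in the liver. On the mean of both genotypes 35 of the 37 genes fell and 0 rose, while 19.6% of all 12273 genes tested fell and 17.5% rose. In WT mice 34 fell (9.9% of all genes) and in AS mice 35 fell (15% of all genes). The median log2 fold change of the 37 genes was -1.23 on the mean of both genotypes, -0.93 in WT and -1.43 in AS mice, against -0.00348, -0.00473 and -0.00321 over all genes. The exceptions to the fall on the mean were Stat2, at -0.12 ± 0.08 (adjusted p = 0.292), and Ifi35, at -0.07 ± 0.09 (adjusted p = 0.547). In 25 of 37 genes every WT CORT liver lay below every WT vehicle liver, as in 7.08% of all genes, and the same held in AS mice for 31 of 37 genes and for 9.11% of all genes. No gene of the 37 rose with DESeq2 or at an unadjusted p under 0.05 either. Of the 37 genes 8 passed the count filter through vehicle groups alone (Gbp3, Gbp4, Gbp6, Mx1, Oas1a, Tgtp2, Usp18 and Zbp1), a filter that favours a fall, and all 8 fell. Of the other 29 genes 27 fell on the mean of both genotypes, with a median of -1.05. Of these 29 genes, 26 fell in WT mice, with a median of -0.90, and 27 in AS mice, with a median of -1.11. The counts without overlap include all of the 8 in AS mice, and all but Mx1 and Oas1a in WT mice. Below, each log2 fold change from the test is the CORT mean minus the vehicle mean, averaged over WT and AS mice unless a genotype is named, ± SE.

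**Figure D1:**
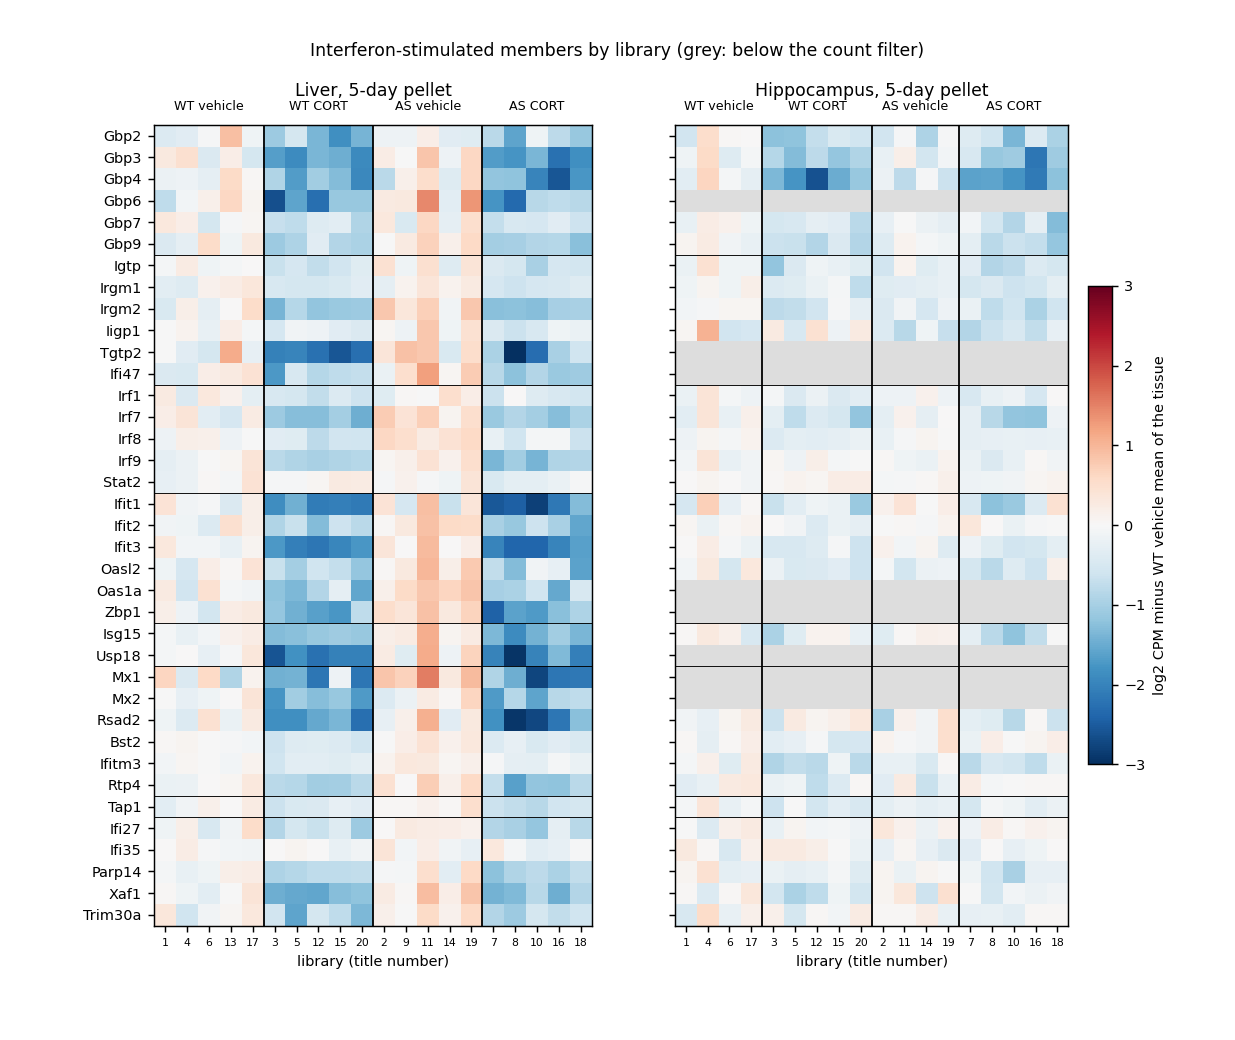
Level of each of the 37 genes in each library of the continuous experiment, as log2 CPM minus the mean of the WT vehicle libraries of the same tissue, with libraries in columns by group and genes in rows by role. In each of the 10 CORT livers 35 to 37 of the 37 genes lie below the WT vehicle mean (blue), in the 10 CORT hippocampi 20 to 28 of the 29 tested and by less on average, and grey rows are the 8 genes below the count filter there.

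Guanylate-binding proteins are GTPases that coat pathogen vacuoles and bacteria, and all 6 genes fell in the liver. Gbp3 was measured at 1.74, 1.87, 2.94, 3.18 and 3.62 CPM in WT vehicle livers and at 0.612, 0.616, 0.743, 0.870 and 0.932 CPM in WT CORT livers. In AS mice it was 2.31, 2.56, 2.98, 3.98 and 4.62 CPM with vehicle and 0.468, 0.642, 0.682, 0.733 and 0.932 CPM with CORT. The groups did not overlap in either genotype, and Gbp3 fell by 2.03 ± 0.18 on the log2 scale (adjusted p = 3.60e-08). Gbp6 changed by -2.07 ± 0.32 (adjusted p = 3.23e-05), at levels of 0.626 to 3.25 CPM in vehicle livers and 0.0990 to 0.623 CPM in CORT livers. Gbp4 changed by -1.68 ± 0.23 (adjusted p = 8.45e-06) and Gbp9 by -1.17 ± 0.15 (adjusted p = 3.96e-06). Gbp4 and Gbp9 overlap on chromosome 5, and Gbp6 has the near-identical copy Gbp10, so that reads may be shared between them. Gbp2 changed by -1.004 ± 0.21 (adjusted p = 9.10e-04), and its fall passed the test in WT mice, at -1.32 ± 0.30 (adjusted p = 0.00401), but not in AS mice, at -0.69 ± 0.30 (adjusted p = 0.0925), although the difference between the genotypes did not pass (0.63 ± 0.43, adjusted p = 0.695). Gbp7 showed the smallest fall of the 6, -0.69 ± 0.14 (adjusted p = 5.47e-04), and in WT mice its call was lost when any of 5 single libraries was left out.

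Immunity-related GTPases act on the same vacuoles, and their 6 genes fell as well, over a wider range. Tgtp2 fell furthest, from 0.737, 0.855, 0.916, 1.11 and 2.52 CPM in WT vehicle livers to 0.102, 0.153, 0.155, 0.198 and 0.205 CPM in WT CORT livers. The AS livers held 0.786, 1.44, 1.65, 2.02 and 2.11 CPM with vehicle and 0.0487, 0.147, 0.520, 0.524 and 0.695 CPM with CORT. No value of a CORT liver reached the vehicle range of its genotype, and the log2 fold change was -2.46 ± 0.34 (adjusted p = 9.79e-06), with the caution that Tgtp1 is a near-identical copy. Irgm2, a regulator of the GTPases that load onto vacuoles, changed by -1.43 ± 0.13 (adjusted p = 3.60e-08), and Ifi47 by -1.25 ± 0.18 (adjusted p = 1.44e-05). Igtp, which overlaps Irgm2 in the annotation, was 18.97, 19.9, 20.2, 21.1 and 24.7 CPM in WT vehicle livers and 12.5, 13.1, 14.1, 14.6 and 16.3 CPM in WT CORT livers. Every WT CORT liver lay below the WT vehicle range, and Igtp fell by 0.68 ± 0.10 on the log2 scale (adjusted p = 2.54e-05). Irgm1 changed by -0.56 ± 0.09 (adjusted p = 4.99e-05). Iigp1, the gene with the highest level of the family, changed least, by -0.46 ± 0.11 (adjusted p = 0.00235), and its fall passed in AS mice (-0.62 ± 0.16, adjusted p = 0.00530) but not in WT mice (-0.31 ± 0.16, adjusted p = 0.192), while the difference between the genotypes did not pass (-0.32 ± 0.22, adjusted p = 0.708).

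Of the 5 transcription factors 4 fell, and Stat2 did not pass on the mean of both genotypes. Irf7, the amplifier of type I interferon transcription, was 12.9, 14.9, 21.1, 21.8 and 24.1 CPM in WT vehicle livers and 6.63, 7.55, 7.56, 8.57 and 9.01 CPM in WT CORT livers. In AS livers it was 19.6, 24.4, 26.1, 30.1 and 31.3 CPM with vehicle and 7.59, 8.54, 9.03, 9.47 and 10.03 CPM with CORT, again without overlap. The log2 fold change of Irf7 was -1.41 ± 0.11 (adjusted p = 7.16e-09). Irf9, the DNA-binding partner of STAT2, changed by -1.14 ± 0.09 (adjusted p = 6.89e-09). Irf8, a factor of myeloid cells and B cells, changed by -0.67 ± 0.10 (adjusted p = 1.62e-05), and Irf1, a target of interferon gamma, by -0.54 ± 0.12 (adjusted p = 0.00101). Stat2 was 51.9, 54.7, 58.7, 63.05 and 82.4 CPM in WT vehicle livers and 59.7, 60.2, 63.7, 72.2 and 74.01 CPM in WT CORT livers, which overlapped. It passed the test in AS mice only, at -0.32 ± 0.12 (adjusted p = 0.0487), a call lost in 17 of 24 alternatives, and 0.09 ± 0.12 was its value in WT mice; the difference between the genotypes did not pass (-0.41 ± 0.17, adjusted p = 0.549).

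Effectors that bind RNA or sense nucleotides gave some of the largest falls. Ifit3, which forms complexes with Ifit1 on foreign RNA, was 6.20, 6.89, 6.93, 7.66 and 9.05 CPM in WT vehicle livers and 1.55, 1.70, 1.79, 2.09 and 2.13 CPM in WT CORT livers. AS livers held 7.36, 7.38, 8.44, 9.48 and 14.2 CPM with vehicle and 1.31, 1.32, 1.77, 1.78 and 2.30 CPM with CORT. The highest CORT liver of either genotype was thus well below the lowest vehicle liver, and Ifit3 gave the lowest adjusted p among the 37, with a log2 fold change of -2.23 ± 0.14 (adjusted p = 1.82e-10). Its neighbour Ifit3b is a near-identical copy. Ifit1 changed by -2.23 ± 0.22 (adjusted p = 1.73e-07) and Ifit2 by -1.26 ± 0.15 (adjusted p = 2.18e-06). Zbp1, a sensor of Z-form nucleic acids that can start necroptosis, changed by -1.82 ± 0.18 (adjusted p = 1.60e-07). Oas1a, which makes the oligoadenylates that activate RNase L, changed by -1.42 ± 0.20 (adjusted p = 1.49e-05), and its relative Oasl2 by -1.07 ± 0.20 (adjusted p = 2.20e-04).

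The ISG15 pair fell together. Isg15, a ubiquitin-like protein that is attached to other proteins, was 5.98, 6.58, 6.69, 7.67 and 8.10 CPM in WT vehicle livers and 2.77, 2.88, 3.11, 3.11 and 3.28 CPM in WT CORT livers. In AS livers it was 7.36, 7.89, 8.23, 8.34 and 14.9 CPM with vehicle and 1.80, 2.55, 2.62, 2.67 and 3.33 CPM with CORT. One AS vehicle liver, number 11, stood above the rest, the groups did not overlap, and Isg15 changed by -1.53 ± 0.13 (adjusted p = 1.67e-08). Usp18, the protease that removes ISG15 and dampens the type I receptor, changed by -2.37 ± 0.21 (adjusted p = 2.90e-08).

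Of the 6 membrane and virus-restricting effectors, Mx1, a GTPase against influenza viruses, changed by -2.62 ± 0.39 (adjusted p = 2.75e-05) from a low level, after passing the count filter through the AS vehicle group alone. It was 0.263, 0.402, 0.627, 0.934 and 0.962 CPM in WT vehicle livers and 0.0510, 0.0518, 0.149, 0.154 and 0.512 CPM in WT CORT livers, and 0.736, 1.004, 1.11, 1.21 and 1.87 CPM in AS vehicle livers and 0, 0.0520, 0.0535, 0.146 and 0.262 CPM in AS CORT livers. Of the 10 CORT livers 8 held 3 counts or fewer, the WT groups overlapped, and the WT call was lost when any of 6 single libraries was left out. Mx2, annotated as a polymorphic pseudogene, changed by -1.33 ± 0.16 (adjusted p = 1.96e-06). Rsad2, or viperin, which makes a chain-terminating nucleotide, changed by -2.13 ± 0.22 (adjusted p = 2.78e-07), and Rtp4 by -1.23 ± 0.12 (adjusted p = 9.17e-08). The abundant Bst2 and Ifitm3 fell by less. Bst2 was 113, 116, 118, 121 and 127 CPM in WT vehicle livers and 77.3, 78.9, 89.2, 90.7 and 91.97 CPM in WT CORT livers, without overlap, and changed by -0.54 ± 0.05 (adjusted p = 1.70e-07). Ifitm3 changed by -0.36 ± 0.05 (adjusted p = 1.49e-05).

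Tap1, which pumps peptides into the endoplasmic reticulum for class I antigen presentation, changed by -0.63 ± 0.08 (adjusted p = 2.92e-06). The remaining genes were Xaf1, a promoter of apoptosis, at -1.57 ± 0.14 (adjusted p = 2.69e-08), Trim30a at -1.05 ± 0.16 (adjusted p = 3.04e-05), Parp14, an ADP-ribosyltransferase, at -0.96 ± 0.10 (adjusted p = 4.83e-07), and Ifi27 at -0.85 ± 0.12 (adjusted p = 2.05e-05). Over the 37 genes, 24 had a log2 fold change under -1 and 8 under -2 on the mean of both genotypes, against 3.61% and 0.644% of all genes, and of the 29 genes that did not pass the count filter through vehicle groups alone, 16 and 3.

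**Figure D2:**
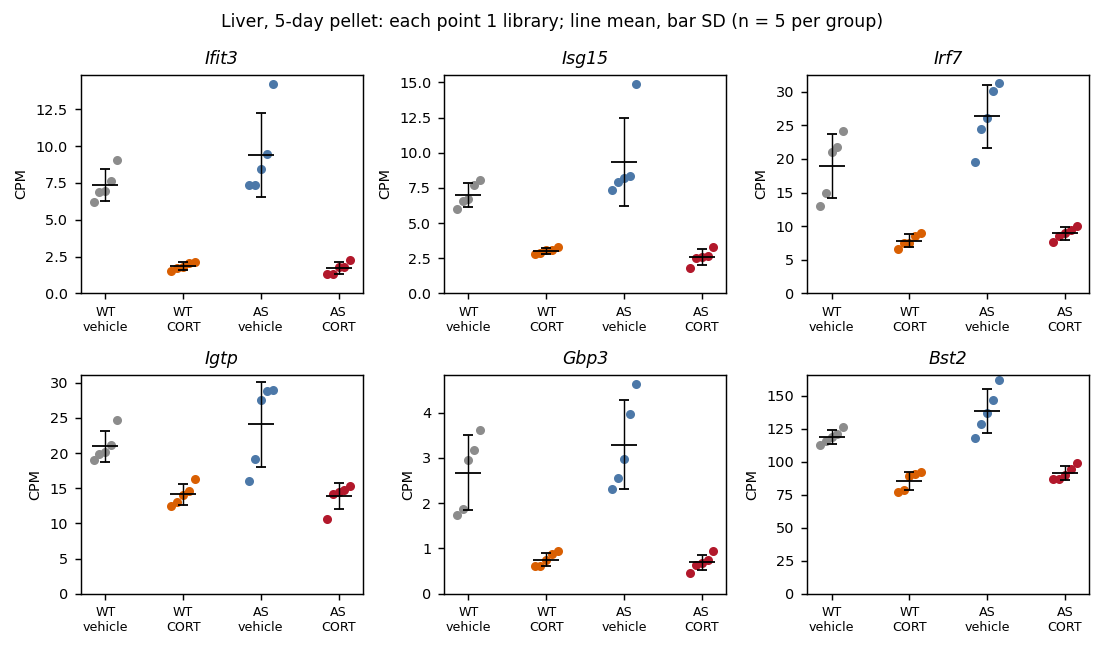
CPM of 6 of the genes in each of the 20 livers, with 1 point per library, the group mean as a line and the SD as a bar (n = 5 per group). In each gene the CORT livers of both genotypes sit below the vehicle livers of the same genotype.

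Markers of other cells of the liver moved with the same treatment. Of 11 measured markers of Kupffer cells, the resident macrophages, 9 fell and 0 rose, with a median log2 fold change of -0.84, and their summed level was 183 to 238 CPM in WT vehicle, 105 to 151 in WT CORT, 243 to 334 in AS vehicle and 101 to 152 in AS CORT livers. Marco and Cd163 were the 2 that did not pass. Endothelial markers fell in 7 of 9 tested, with a median of -0.41 and summed levels of 198 to 300 and 181 to 289 CPM in WT vehicle and CORT livers and of 245 to 345 and 190 to 269 CPM in AS livers. Of 8 neutrophil and monocyte markers 3 passed the filter and all 3 fell, as did 2 of 7 B cell markers and 1 of 12 T and NK cell markers, the only ones that passed it. Summed levels of the latter lists were low, at 6.21 to 8.46, 4.62 to 38.1 and 3.13 to 6.73 CPM in WT vehicle livers, against 3.54 to 5.58, 4.52 to 14.3 and 0.594 to 1.64 in WT CORT livers. In AS livers the same sums were 8.35 to 11.5, 15.8 to 43.03 and 3.78 to 6.07 CPM with vehicle and 4.97 to 5.87, 2.08 to 8.39 and 0.995 to 2.35 with CORT. Ly6g, which defines neutrophils, had 0 counts in 19 of 20 livers. Hepatocyte markers gave a median of 0.08, with 3 of 8 higher and 1 lower. Of the 37 genes, 26 had a log2 fold change below the Kupffer median and 10 below that of every Kupffer marker, and of the 29 genes that did not pass the count filter through vehicle groups alone, 18 and 3. The 2 B cell markers had a lower median, -2.39, with 2 of the 37 and 0 of the 29 genes below it, and the T and NK cell marker stood at -1.32, with 16 and 8 genes below it. Over the 3 neutrophil and monocyte markers the median was -0.97, with 24 and 16 genes below it. The T and NK cell marker (Cd4), 2 of the 3 neutrophil and monocyte markers (Ccr2 and Csf3r) and 1 of the 2 B cell markers (Cd79a) passed the count filter through vehicle groups alone, which favours a fall in these lists too. The share of reads that did not align was 4.52% to 8.93% in vehicle livers and 1.49% to 4.77% in CORT livers. The part of these cells and of read alignment in the fall of the 37 genes was not tested.

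**Figure D3:**
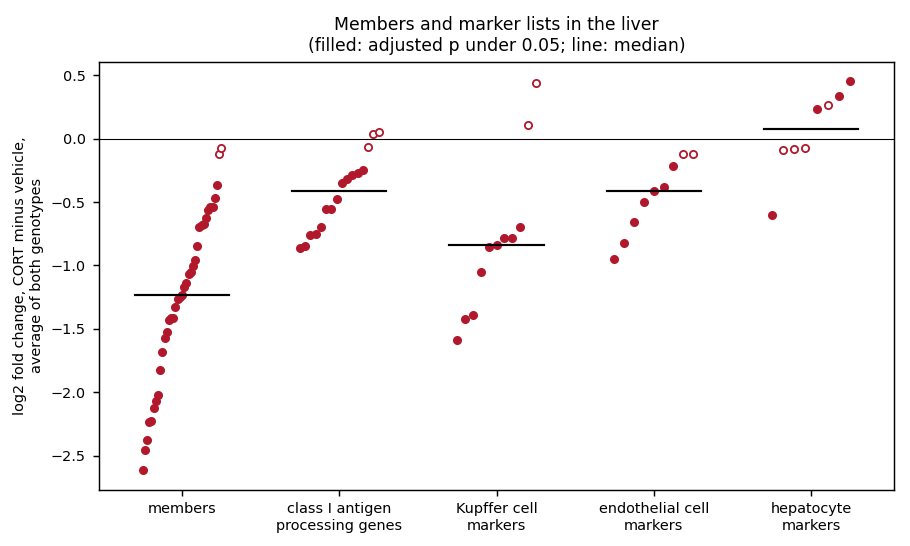
Log2 fold change in the liver, CORT minus vehicle averaged over genotypes, for the 37 genes (members), genes of class I antigen processing and markers of Kupffer cells, endothelial cells and hepatocytes, with 1 point per gene, filled where it passed the test, and the median as a line. The median of the 37 genes, -1.23 (-1.05 over the 29 that did not pass the filter through vehicle groups alone), lies below those of the other lists plotted, while single Kupffer markers reach -1.59, and the few markers of B cells (median -2.39) and of T and NK cells (-1.32), which lie lower, are not plotted.

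Other genes of the pathway were counted from lists chosen by role. Of 44 further interferon-stimulated genes, 38 were tested in the liver, where 31 fell and 1 rose, with a median log2 fold change of -0.74. Of these 38 genes 11 passed the count filter through vehicle groups alone, and of the other 27, 21 fell and 1 rose, with a median of -0.35. The helicase Ddx60 was at -1.91 ± 0.17 (adjusted p = 3.44e-08) and Slfn5 at -1.02 ± 0.10 (adjusted p = 8.32e-08), whereas Ifitm2, named after its value was seen, rose by 0.56 ± 0.10 (adjusted p = 9.92e-05). The 5 further guanylate-binding protein and immunity-related GTPase genes that passed the filter did so through vehicle groups alone, which favours a fall, and all 5 fell, Gbp10 by -3.84 ± 0.36 (adjusted p = 7.77e-08) and Gbp11 by -3.03 ± 0.35 (adjusted p = 1.08e-06). Genes of class I antigen processing fell in 13 of 16 cases by a median of -0.41, among them H2-T23 by -0.75 ± 0.05 (adjusted p = 4.03e-10). Of 12 genes of nucleic acid sensing 5 fell, such as the RNA sensor Ifih1 at -0.64 ± 0.07 (adjusted p = 5.55e-07). Upstream, 5 of 11 ligand and receptor genes passed the filter, none of them an interferon, and 3 fell, Il10rb by -0.72 ± 0.12 (adjusted p = 8.19e-05), Ifnar1 by -0.23 ± 0.04 (adjusted p = 3.85e-04) and Ifngr1 by -0.21 ± 0.07 (adjusted p = 0.0214). Of 13 signalling genes tested 3 fell and 1 rose, with a median of -0.056, while 19.6% of all genes fell and 17.5% rose. Among these signalling genes, Irf5 (-1.34 ± 0.16, adjusted p = 1.29e-06) and Tyk2 (-0.23 ± 0.06, adjusted p = 0.00538) fell and Irf2 rose (0.81 ± 0.13, adjusted p = 5.16e-05).

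In the hippocampus fewer of these genes passed under the same pellet. On the mean of both genotypes 10 of 29 tested genes fell and 0 rose, while 5.48% of all 14949 genes tested fell and 4.19% rose, and the median log2 fold change was -0.32 against 0.00 over all genes. In WT mice 4 genes fell (2.11% of all genes), namely Gbp3, Gbp4, Gbp9 and Ifitm3, and in AS mice 3 fell (1.75% of all genes), Gbp3, Gbp4 and Gbp9. In 5 genes, Gbp3, Gbp4, Gbp7, Gbp9 and Irf8, each WT CORT hippocampus lay below each WT vehicle hippocampus, as in 3.55% of all genes, and in AS mice this held for Gbp4 only, against 3.39% of all genes. With H9 and H13 included 12 genes fell on the mean, 2 in WT and 1 in AS mice. The count on the mean was 6 when vehicle mouse 4 or 17 of the WT group, or 11 or 19 of the AS group, was left out. In WT mice the count of 4 became 1 without vehicle mouse 4 or CORT mouse 20 and 2 without CORT mouse 5 or 12 or vehicle mouse 17, and in AS mice the count of 3 became 1 without CORT mouse 8, 10, 16 or 18, vehicle mouse 11, 14 or 19, or WT CORT mouse 20. Of the 29 genes Gbp4, Ifit1 and Isg15 passed the count filter through vehicle groups alone and Rsad2 and Rtp4 through a CORT group alone. Without the first 3 genes 9 of 26 genes fell on the mean, 3 in WT and 2 in AS mice. With 0 genes higher, the count at an unadjusted p under 0.05 and with DESeq2 was also 0.

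Of the 10 genes that fell in the hippocampus 5 were guanylate-binding protein genes, all 5 of the family that were tested. Gbp4 was 1.06, 1.08, 1.26 and 2.13 CPM in WT vehicle hippocampi and 0.138, 0.326, 0.416, 0.463 and 0.556 CPM in WT CORT hippocampi. In AS mice it was 0.733, 0.818, 1.16 and 1.28 CPM with vehicle and 0.231, 0.325, 0.376, 0.378 and 0.510 CPM with CORT. Neither genotype showed overlap, and Gbp4 changed by -1.65 ± 0.22 (adjusted p = 7.17e-05). Gbp3 was 2.27, 2.76, 2.89 and 4.53 CPM in WT vehicle and 1.17, 1.29, 1.58, 1.62 and 1.71 CPM in WT CORT hippocampi, and it changed by -1.03 ± 0.18 (adjusted p = 0.00102). Gbp9 was 2.39, 2.58, 2.94 and 3.35 CPM in WT vehicle and 1.48, 1.48, 1.72, 1.76 and 2.03 CPM in WT CORT hippocampi, and it changed by -0.67 ± 0.12 (adjusted p = 0.00104). In AS mice the value of Gbp9 was -0.61 ± 0.17 (adjusted p = 0.0495), which missed the threshold in 17 of 22 alternatives. Gbp2, at -0.63 ± 0.18 (adjusted p = 0.0347), and Gbp7, at -0.45 ± 0.14 (adjusted p = 0.0482), also passed, with the call lost in 9 and 15 of 22 alternatives, most of which left out a single library. Gbp6 was not tested there.

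Outside that family, Irf7 changed in the hippocampus by -0.65 ± 0.18 (adjusted p = 0.0267), a call lost without WT vehicle mouse 4 or 17 or AS vehicle mouse 11 or 19 (-0.57 to -0.63, adjusted p = 0.0529 to 0.0637). Irf8 changed by -0.25 ± 0.06 (adjusted p = 0.0132), a call lost without the count filter. Ifitm3 was 4.64, 5.83, 6.75 and 7.26 CPM in WT vehicle and 3.20, 3.41, 3.43, 3.59 and 5.50 CPM in WT CORT hippocampi, where CORT mouse 15 reached into the vehicle range, and it changed by -0.51 ± 0.12 (adjusted p = 0.0114). Ifit3 was 3.61, 4.06, 4.18 and 4.89 CPM in WT vehicle and 2.69, 2.94, 2.97, 3.18 and 4.07 CPM in WT CORT hippocampi, with overlap, and changed by -0.37 ± 0.10 (adjusted p = 0.0245), a call lost without the count filter and without WT vehicle mouse 4 or AS vehicle mouse 2 or 14 (-0.32 to -0.35, adjusted p = 0.05002 to 0.0558). Xaf1 stood just inside the threshold at -0.45 ± 0.14 (adjusted p = 0.04997) and lost its call in 15 of 22 alternatives. Igtp (-0.41 ± 0.16, adjusted p = 0.114), Irgm1 (-0.27 ± 0.09, adjusted p = 0.0543), Isg15 (-0.44 ± 0.19, adjusted p = 0.187), Bst2 (-0.21 ± 0.11, adjusted p = 0.286) and Irf9 (-0.08 ± 0.09, adjusted p = 0.677) did not pass. Ifit1 did not either, at -0.62 ± 0.24 (adjusted p = 0.122) and levels of 0.689 to 1.72 CPM in WT vehicle hippocampi. Genes below the filter in the hippocampus were Gbp6, Ifi47, Mx1, Mx2, Oas1a, Tgtp2, Usp18 and Zbp1.

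Among the wider lists in the hippocampus, 7 of 14 class I antigen processing genes fell, Psmb9 by -0.83 ± 0.13 (adjusted p = 4.27e-04) and H2-Q4 by -0.79 ± 0.13 (adjusted p = 4.95e-04), as did 4 of 24 further interferon-stimulated genes, Slfn5 by -0.65 ± 0.10 (adjusted p = 4.22e-04). Microglial markers fell in 6 of 12 cases, with a median of -0.15, and their sum was 472 to 524 CPM in WT vehicle, 409 to 463 in WT CORT, 439 to 492.5 in AS vehicle and 401 to 464 in AS CORT hippocampi. Endothelial markers fell in 4 of 9 cases and rose in 1, with sums of 177 to 210 CPM in WT vehicle, 156 to 181 in WT CORT, 169 to 200 in AS vehicle and 151 to 186 in AS CORT hippocampi. Of these 9 markers Stab2 passed the count filter through the AS CORT group alone, which favours a rise. Astrocyte markers fell in 4 of 6 cases and rose in 1. Both B cell markers that passed the filter fell, 0 of 8 neuronal markers passed the test, and no T or NK cell marker passed the filter. Of 5 choroid plexus markers 0 passed on the mean, with a median of -0.96, and 2 fell in WT mice, Ttr at -4.57 ± 1.22 (adjusted p = 0.0484) and Folr1, which passed the filter through the WT vehicle group alone, at -3.35 ± 0.79 (adjusted p = 0.0253). Their summed level was 77.97 to 2918 CPM (median 683) in WT vehicle, 36.6 to 129 (104) in WT CORT, 85.9 to 331 (152) in AS vehicle and 46.4 to 511 (97.7) in AS CORT hippocampi. Ttr was also the 1 of 8 hepatocyte markers that passed the filter in the hippocampus. Of 5 interferon receptor genes 2 fell, and of 14 genes of nucleic acid sensing 6 fell and 2 rose. In the latter list Dhx58 and Tlr9 passed the count filter through vehicle groups alone, which favours a fall, and Ikbke through the AS CORT group alone, which favours a rise. Without Dhx58 and Tlr9, 5 of 12 fell and 2 rose. The part of these cells in the hippocampal values was not tested.

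Whether the 2 tissues differed was tested in a joint fit of the 38 libraries, as the CORT effect in liver minus that in hippocampus, averaged over genotypes, for the 29 genes that passed the filter in both. The difference passed with a negative value, a lower CORT effect in the liver, for 18 genes and for 13% of all 11017 genes tested. With a positive value it passed for 0 genes and for 12.5% of all genes, which include genes that rose more in the liver. The median difference of the 29 genes was -0.62 on the log2 scale. Rsad2 (-1.95 ± 0.33, adjusted p = 2.11e-05), Ifit3 (-1.86 ± 0.17, adjusted p = 4.61e-10) and Ifit1 (-1.62 ± 0.35, adjusted p = 6.29e-04) were furthest below 0. In the hippocampus Rsad2 passed the count filter through the WT CORT group alone and Rtp4 through the AS CORT group alone, and in the liver Gbp3 and Gbp4 passed through vehicle groups alone, each of which favours a negative difference. Gbp4 also passed in the hippocampus through the WT vehicle group alone, which favours the opposite direction. Without these 4 genes the difference passed in 15 of 25 with a median of -0.496, and without Ifit1 and Isg15 too, which passed in the hippocampus through vehicle groups alone, in 13 of 23 with a median of -0.429. Irf9, which did not pass in the hippocampus, differed by -1.06 ± 0.13 (adjusted p = 6.91e-08), Isg15 by -1.09 ± 0.24 (adjusted p = 6.03e-04) and Irf7 by -0.77 ± 0.22 (adjusted p = 0.00784). Oasl2 passed at -0.75 ± 0.25 (adjusted p = 0.0239), a call lost without the count filter and with the title number as a block. Bst2 passed at -0.33 ± 0.11 (adjusted p = 0.0225), a call lost without WT vehicle hippocampus 4 or without the count filter.

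By role, the tissues differed in all 4 tested RNA-binding and nucleotide-sensing genes, in 3 of 5 transcription factors, in 3 of 4 membrane effectors, of which Rsad2 and Rtp4 are 2, in Tap1 and Isg15, and in 4 of 5 of the remaining genes. They differed in 1 of 5 guanylate-binding protein genes, Gbp3, at -0.997 ± 0.27 (adjusted p = 0.00517), whose filter group in the liver favours this direction, and in 1 of 4 immunity-related GTPase genes, Irgm2, at -1.03 ± 0.21 (adjusted p = 2.56e-04). For Gbp4 the difference was -0.04 (adjusted p = 0.962), too near 0 for the SE used here, so that none is given. For Gbp2 the difference was -0.37 ± 0.29 (adjusted p = 0.382), for Gbp7 -0.25 ± 0.20 (adjusted p = 0.406) and for Gbp9 -0.50 ± 0.19 (adjusted p = 0.0542). Ifitm3 was the only one of the 29 with a positive difference, 0.14 ± 0.12 (adjusted p = 0.419). A miss of the threshold does not show that a gene responded alike in both tissues, and whether the share of genes differs between roles was not tested.

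**Figure D4:**
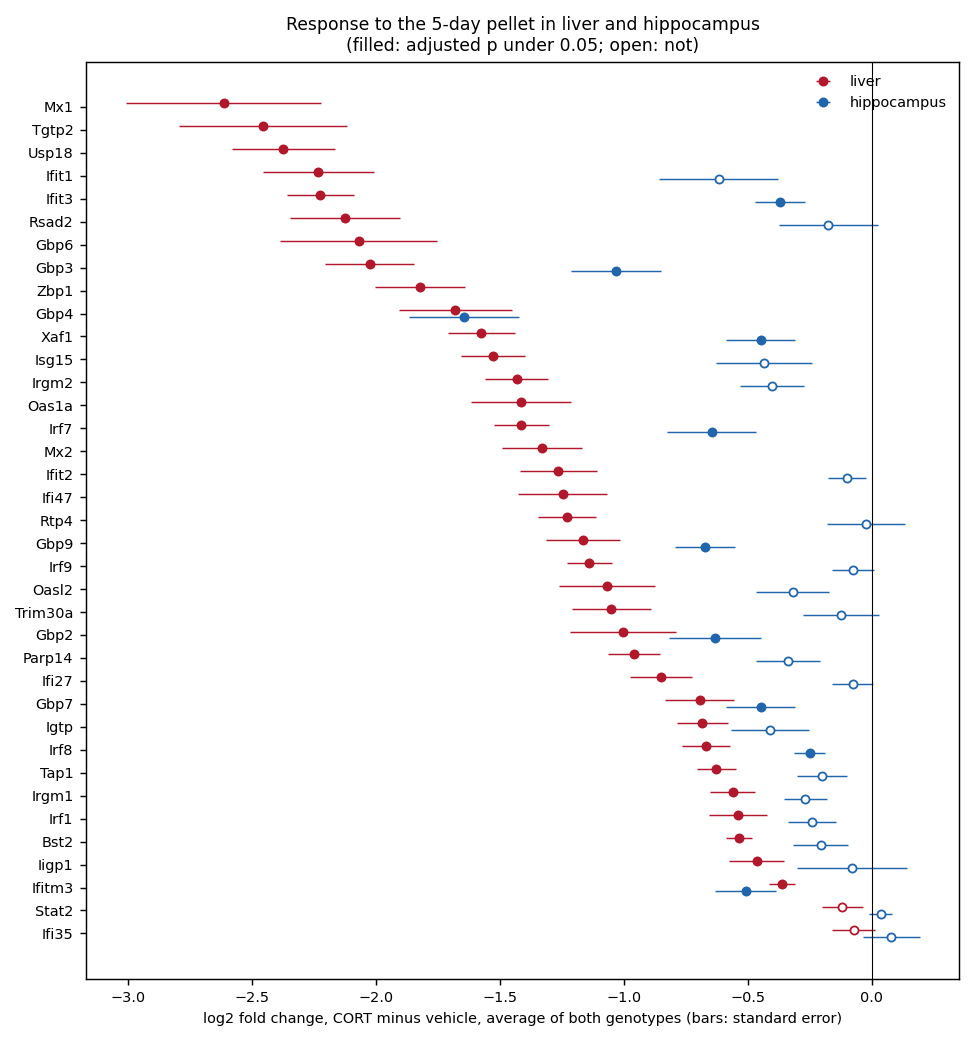
Log2 fold change of each of the 37 genes, CORT minus vehicle averaged over genotypes with its standard error as a bar, in liver (red) and hippocampus (blue), filled where it passed the test in that tissue. Liver points run from -2.62 for Mx1 to -0.07 for Ifi35, and those of Gbp4 nearly coincide, at -1.68 in liver and -1.65 in hippocampus.

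Liver and hippocampal libraries of the continuous experiment carry the same 20 numbers in their titles, with equal genotype and treatment for each number. Whether liver and hippocampus of 1 number moved together was examined for 2 genes as deviations from the group means, over the 18 numbers with both libraries, with two-sided permutation within groups and adjustment over the 2 genes. Ifit3 gave Pearson's r = 0.0145 (permutation p = 0.960, adjusted p = 0.960) and Spearman's rho = -0.063 (permutation p = 0.822, adjusted p = 0.822). Igtp gave Pearson's r = 0.351 (permutation p = 0.161, adjusted p = 0.323) and Spearman's rho = 0.397 (permutation p = 0.131, adjusted p = 0.261). Without the 2 numbers farthest from the liver median, r was -0.0469 for Ifit3 and 0.382 for Igtp, so that no relation was detectable for either.

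A single injection changed few of these genes in the hippocampus within 3 h. Of 27 tested, 1 fell in WT mice (0.417% of all 14611 genes fell) and in AS mice 1 fell and 1 rose (9.62% and 8.25% of all genes), while on the mean of both genotypes 2 fell and 0 rose (3.5% and 3.52% of all genes), with 1 higher at an unadjusted p under 0.05, against 9.67% of all genes. The medians of the 27 genes were -0.05 in WT and -0.15 in AS mice, against 0.00 and 0.01 over all genes. Gbp9 fell in both genotypes. Its lowest, median and highest CPM were 1.201, 1.94 and 2.47 in WT vehicle and 0.684, 1.01 and 1.52 in WT CORT mice (n = 6 each). In AS mice they were 1.63, 2.17 and 2.34 with vehicle and 0.953, 1.06 and 1.67 with CORT, and the ranges overlapped in both genotypes. The log2 fold change of Gbp9 was -0.82 ± 0.19 (adjusted p = 0.0163) in WT and -0.81 ± 0.18 (adjusted p = 0.00370) in AS mice. Gbp7 fell on the mean, by -0.34 ± 0.09 (adjusted p = 0.0153). Gbp4, which passed the count filter through the AS vehicle group alone, was at -1.04 ± 0.40 (adjusted p = 0.0687) in AS mice and 0.05 ± 0.39 (adjusted p = 0.979) in WT mice. Without the WT CORT library H8 the WT value turned to -0.64 ± 0.32 (adjusted p = 0.453), the AS value passed at -1.05 ± 0.28 (adjusted p = 0.0103), and so did the mean, at -0.84 ± 0.21 (adjusted p = 0.0127). On the mean of both genotypes 4 of 12 microglial and 3 of 8 endothelial markers fell as well, and 0 and 1 rose. The part of these cells in the acute values was not tested.

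Iigp1 rose in AS mice, from 0.537, 0.928 and 1.36 CPM (lowest, median and highest) with vehicle to 1.38, 1.53 and 2.06 CPM with CORT, without overlap, as in 3% of all genes. In WT mice the same values were 0.782, 1.22 and 1.64 with vehicle and 0.539, 1.10 and 2.46 with CORT, which overlapped. Its log2 fold change was 0.81 ± 0.26 (adjusted p = 0.0318) in AS and -0.03 ± 0.26 (adjusted p = 0.984) in WT mice, and the difference between the genotypes was 0.83 ± 0.36 (adjusted p = 0.165). Without the WT CORT library H8, which held the highest WT value of Iigp1 and of Gbp4, 4 genes passed in AS mice, with Gbp4 and Xaf1 lower beside Gbp9, and Iigp1 passed for the genotype difference with CORT and for the interaction, where Xaf1 passed for the former too. Without WT CORT mouse 11 or AS CORT mouse 21, 1 gene passed for the genotype difference with CORT. The libraries H17 to H24, 2 of AS vehicle and all 6 of AS CORT mice, held 2640 to 2850 reads of low alignment quality against 1877 to 2237 in the other 16. With a covariate for this division, 0 genes passed in AS mice, where Gbp9 stood at -0.86 ± 0.25 (adjusted p = 0.118) and Iigp1 at 0.84 ± 0.38 (adjusted p = 0.530), and Gbp9 still fell in WT mice. The Iigp1 call was lost in 6 of 29 alternatives, with that covariate and without AS vehicle mouse 14, 15 or 16 or AS CORT mouse 20 or 23 (0.69 to 0.82, adjusted p = 0.0534 to 0.0897). Without mouse 20 the count stayed at 2, without each of the other 4 mice it was 1, and leaving out AS vehicle mouse 17 gave 4. In WT mice the single call was lost without vehicle mouse 2 or CORT mouse 10 or 11, and the 2 on the mean became 4 without AS vehicle mouse 15 or 17.

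**Figure D5:**
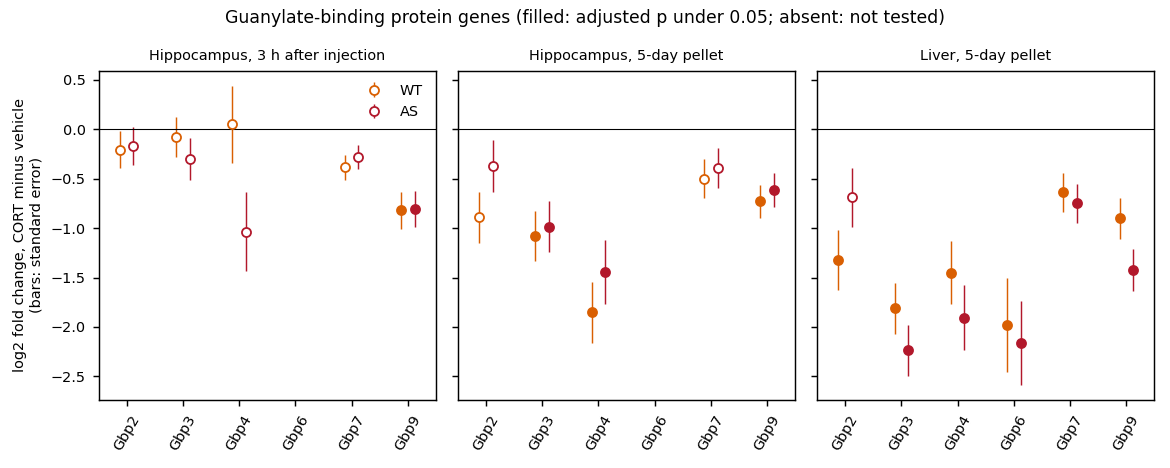
Log2 fold change, CORT minus vehicle, of the 6 guanylate-binding protein genes in WT (orange) and AS mice (red) at 3 h after injection in hippocampus and after the 5-day pellet in hippocampus and liver, with the standard error as a bar and filled points where the test passed. Gbp9 is filled in both genotypes in all 3 panels, and Gbp6 appears in the liver panel only.

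In the main edgeR fits and with DESeq2, no gene of the 37 differed between AS and WT mice, nor in its CORT effect between genotypes, in any tissue or experiment. In the acute hippocampus, edgeR fits that left out 1 library called 0 to 2 genes for the genotype difference with CORT and 0 to 1 for the interaction, as given above. Over all genes, edgeR called 0.0163%, 0.277% and 0% in the liver for the vehicle difference, the CORT difference and the interaction, 0.0134%, 0.0401% and 0% in the continuous hippocampus, and 0.157%, 24.9% and 4.49% in the acute hippocampus. In vehicle livers 36 of 37 genes had a positive AS minus WT difference, with a median log2 difference of 0.28, against 52.0% of all genes with a positive value and a median of 0.01. Of these, 13 had an unadjusted p under 0.05, as had 5.69% of all genes in this direction, and 0 an adjusted one. The 3 genes Mx1, Oas1a and Tgtp2 passed the count filter through the AS vehicle group alone. Irf8, at 0.49 ± 0.13 (adjusted p = 0.224), and Irf7, at 0.47 ± 0.15 (adjusted p = 0.271), were the 2 closest to the threshold. Averaged over the 37 genes, single AS vehicle livers lay 0.01 to 0.66 log2 units from the WT vehicle mean, with libraries 11 and 19 at 0.66 and 0.50 and the other 3 at 0.01 to 0.15. WT vehicle livers lay at -0.12 to 0.16, so that the genotypes overlapped. CORT livers overlapped between genotypes on this measure, at -1.10 to -0.92 in WT and -1.23 to -0.93 in AS mice. The Kupffer marker sums given above did not overlap between AS and WT vehicle livers, and their part in this difference was not tested. For the CORT effect, 32 of 37 genes had a lower value in AS than in WT livers, against 51.1% of all genes, and 8 of them had an unadjusted p under 0.05, against 4.45% of all genes in this direction, and 0 an adjusted one. In the continuous hippocampus, 20 of 29 genes had a higher value of the CORT effect in AS than in WT mice, against 50.1% of all genes, with a median of 0.11, and 0 had an unadjusted p under 0.05. In the acute hippocampus 15 of 27 had a lower one, against 48.7% of all genes. In vehicle hippocampi of the continuous experiment 23 of 29 genes had a negative AS minus WT difference, against 50.7% of all genes, and 2 had an unadjusted p under 0.05, against 4.23% of all genes in this direction. In those of the acute experiment 17 of 27 were negative, against 51.3% of all genes, with a median of -0.017.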

How the data were processed

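RNA-seq of left hippocampus and liver was analysed from gene-level read counts of 64 libraries. The authors made the deposited counts from stranded mRNA libraries sequenced as 100 bp paired-end reads, aligned to mm10 with STAR and counted with HTSeq-count. The annotation release and the strand setting of the counting are not given in the sources used here, so genes that overlap on either strand are uncertain. Entries that name no gene (reads on no gene, ambiguous, of low quality or not aligned) were kept out of library sizes, and reads on no gene made up 11.7% to 23.3% of a library. All columns matched a sample (0 unmapped). GENCODE M21 gave symbols to 52133 of 55414 acute and 55480 of 55573 continuous gene IDs, and exon lengths for RPKM.

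Testing was restricted to genes above 20 counts, scaled by median-of-ratios, in 3 or more libraries of 1 group, and used edgeR 4.0.16 (TMM, quasi-likelihood F test, all 4 groups of a tissue in 1 fit, R 4.3.3), with Benjamini-Hochberg adjustment over all genes tested and a threshold of 0.05. A prior count of 2 entered log2 CPM. Each SE from edgeR is the absolute log2 fold change divided by the square root of the F statistic. Such an SE is approximate, and poor for values near 0. The genes and lists were chosen with earlier results of these data known. A gene was given in full where it passed in a CORT, interaction or tissue comparison or was one of a set named by role, and at most 4 genes of a list were named, by smallest adjusted p. Alternatives were median-of-ratios scaling, no filter, DESeq2 1.42.0, limma 3.58.1 (voom with quality weights), leaving out each library, a covariate for low alignment quality, all 20 hippocampal libraries and a replicate block. One gene of the lists is not reported here. The procedure was tested on simulated counts. Figures were drawn with matplotlib 3.10.9 (Python 3.11.15).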

Additional observations from a re-analysis of the deposited data

Results flagged for a closer look

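The CORT effect differed between liver and hippocampus in 18 genes of the joint fit with edgeR's quasi-likelihood test and Benjamini-Hochberg adjustment. On the log2 scale, liver minus hippocampus, the differences were -1.95 for Rsad2, -1.86 for Ifit3, -1.62 for Ifit1, -1.21 for Rtp4, -1.16 for Ifit2, -1.13 for Xaf1, -1.09 for Isg15, -1.06 for Irf9, -1.03 for Irgm2, -0.997 for Gbp3, -0.93 for Trim30a, -0.77 for Ifi27, -0.77 for Irf7, -0.75 for Oasl2, -0.62 for Parp14, -0.43 for Tap1, -0.42 for Irf8 and -0.33 for Bst2. Of these Rsad2 and Rtp4 passed the count filter in the hippocampus through a CORT group alone, and Gbp3 passed it in the liver through vehicle groups alone, which favours a negative value. All 18 were negative, while the difference passed with a negative value in 13% of all 11017 genes and with a positive one in 12.5%. Of the 29 genes tested 28 had a negative difference, for which no share over all genes is given here.

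A library stood apart from the rest of its group, by Dixon's ratio of the gap to the group's range, in 18 of 372 combinations of gene and group, or 4.84%, where chance gives about 1 in 20. In the liver these were Gbp2 at 5.41 CPM in WT vehicle library L13 (others 2.12 to 2.75), Gbp9 at 1.92 CPM in WT CORT library L12 (others 1.09 to 1.28), Ifitm3 at 157 CPM in WT CORT library L3 (others 185 to 193), Igtp at 10.6 CPM in AS CORT library L10 (others 14.2 to 15.3), Isg15 at 14.9 CPM in AS vehicle library L11 (others 7.36 to 8.34), Mx1 at 0.512 CPM in WT CORT library L15 (others 0.0510 to 0.154), Tap1 at 29.9 CPM in AS vehicle library L19 (others 21.6 to 23.1) and Tgtp2 at 2.52 CPM in WT vehicle library L13 (others 0.737 to 1.11). In the hippocampus after the pellet they were Ifitm3 at 5.50 CPM in WT CORT library H15 (others 3.20 to 3.59), Igtp at 2.67 CPM in WT vehicle library H4 (others 1.65 to 1.76) and Irf1 at 8.52 CPM in AS vehicle library H14 (others 6.995 to 7.06). After the injection they were Gbp4 at 1.88 CPM in WT CORT library H8 (others 0.244 to 0.530), Gbp9 at 1.63 CPM in AS vehicle library H16 (others 2.13 to 2.34), Ifit3 at 2.20 CPM in AS CORT library H24 (others 1.42 to 1.65), Iigp1 at 2.46 CPM in WT CORT library H8 (others 0.539 to 1.201), Irf7 at 1.74 CPM in WT vehicle library H4 (others 1.15 to 1.34), Oasl2 at 2.51 CPM in AS CORT library H20 (others 1.74 to 2.01) and Parp14 at 2.01 CPM in WT CORT library H7 (others 1.24 to 1.45). Liver library L13 appears for both Gbp2 and Tgtp2, and acute library H8 for both Gbp4 and Iigp1. The chance share above is for independent groups, and genes of 1 library are not independent.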

How the results depend on the processing

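Over 144 values of single genes under 3762 alternatives in all, 3616 kept direction and side of the threshold, 146 lost the call and 0 reversed. Most of these values are from the liver, and calls in the continuous hippocampus were lost more often. There, Gbp7 and Xaf1 lost the call on the mean in 15 of 22 alternatives each and Gbp9 in AS mice in 17. Gbp3, Gbp4, Gbp9 and Ifitm3 kept the call on the mean in all 22. Counts of genes passed ran, over the fits that leave out 1 library, from 0 to 1 in acute WT mice, 1 to 4 in acute AS mice and 2 to 4 on the acute mean, and from 0 to 2 and 0 to 1 for the acute genotype difference with CORT and the acute interaction. In the continuous hippocampus they ran from 1 to 4 in WT mice, 1 to 3 in AS mice and 6 to 11 on the mean, in the liver from 31 to 34, 32 to 35 and 34 to 35, and for the tissue difference from 18 to 20. The covariate for low alignment quality gave 0 genes in acute AS mice. Without library H8 there were 4 genes in acute AS mice, 2 for the genotype difference with CORT and 1 for the interaction. All 20 hippocampal libraries gave 2 genes in WT and 1 in AS mice. The relation of Ifit3 between tissues turned from 0.0145 to -0.047 without the 2 farthest numbers. The cause of these changes was not tested. Depth limits the lowest genes, of which 8 in the continuous and 10 in the acute hippocampus were not tested.

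With the title number as a replicate block, the tissue difference passed in 17 of 29 genes, against 18 without it, and the call lost was that of Oasl2 (adjusted p = 0.0635). The labels do not state that a number marks 1 mouse, although genotype and treatment matched for 20 of 20 numbers. Deviations from the group means correlated between liver and hippocampus of a number, over 11017 genes, at -0.064 to 0.0762, with 0 of 18 numbers over 0.1 and 4 correlating best with their own number within the group. By chance about 1 number in each of the 4 groups would do so.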
